A study of Rattus norvegicus with 28 samples.

Results

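The rat insulin genes and the genes that turn proinsulin into packed insulin granules were followed in INS-1, an insulin-secreting line derived from a rat insulinoma. The group held 8 of the 17455 gene symbols of the deposited expression table, namely Ins1, Ins2, Iapp, Pcsk1, Pcsk2, Pcsk1n, Cpe and Slc30a8. These were chosen by name, with earlier results of these data known. A symbol with more than 1 transcript was represented by the transcript of highest mean level over the 28 libraries. Of the 8 members, 7 passed the filter of a mean of at least 1 TPM, a unit that divides read numbers by transcript length and sets every library to the same total, and were among the 10275 genes tested. Pcsk1n, at a mean of 0.770 TPM, stayed under that filter.

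The RNA-seq libraries came from WT cells and from Med14 S983A cells, in which a serine of the Mediator subunit Med14 that protein kinase A phosphorylates was replaced by alanine through CRISPR knock-in. Each genotype was sampled untreated (CON) and after 1, 8 or 16 h of either 10 nM of the GLP-1 receptor agonist Exendin-4 (Ex-4) or 10 µM of forskolin (FSK), which activates adenylyl cyclase directly, with 2 libraries in each of the 14 groups. All cultures were moved to medium without serum before the agents were added. The question put to these libraries was how the cAMP response of beta-cell genes depends on the Med14 residue.

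Some features of the design limit every comparison. Mutant lines were grown from single sorted cells. The study states that its experiments were done in replicates and with independently made mutant lines. It does not say, and the labels do not say, which line or lines gave these libraries. An effect of the mutation and a property of the clone therefore cannot be told apart. The study's methods call the replicates of the expression analysis biological, but neither they nor the labels say whether the duplicates of a group were separate cultures or separate lines, so p-values measure the spread between these libraries, which may be technical. The TPM of Med14 itself was 17.2 to 25.9 in WT and 19.6 to 30.0 in the mutant, a value that cannot check a change of 1 residue.

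Insulin is made as a precursor. Preproinsulin enters the endoplasmic reticulum, is folded there as proinsulin, and is then cut in the secretory granule by the prohormone convertases encoded by Pcsk1 and Pcsk2, after which the carboxypeptidase encoded by Cpe trims the basic residues left at the cut ends. The zinc transporter encoded by Slc30a8 loads the granule with the zinc around which insulin crystallises, Iapp encodes amylin, which is processed and released together with insulin, and Pcsk1n encodes proSAAS, an inhibitor of the Pcsk1 product. Rats, unlike humans, carry a pair of insulin genes, of which Ins1 is the retroposed copy of Ins2. Cyclic AMP acts on the insulin promoters through CREB at cAMP response elements (CRE), beside the homeodomain and E-box sites that keep the genes active in beta cells.

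The 250 bases before the start of Ins1 and of Ins2 are shown because the insulin genes are closely related upstream yet behaved differently. Both come from the RefSeq promoter table of the build GRCr8, 5′ to 3′ on the strand of the gene, with the short CRE core TGACG and the insulin E-box GCCATCTG in capitals. Ins1 lies on the plus strand, and the stretch is chr1:261185869-261186118. Ins2 lies on the minus strand, and the stretch is chr1:207273806-207274055.
Ins1: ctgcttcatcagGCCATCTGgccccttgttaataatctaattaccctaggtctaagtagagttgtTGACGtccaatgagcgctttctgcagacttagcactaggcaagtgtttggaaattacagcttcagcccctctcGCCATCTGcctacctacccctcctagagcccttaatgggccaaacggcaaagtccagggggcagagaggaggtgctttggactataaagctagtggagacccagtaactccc
Ins2: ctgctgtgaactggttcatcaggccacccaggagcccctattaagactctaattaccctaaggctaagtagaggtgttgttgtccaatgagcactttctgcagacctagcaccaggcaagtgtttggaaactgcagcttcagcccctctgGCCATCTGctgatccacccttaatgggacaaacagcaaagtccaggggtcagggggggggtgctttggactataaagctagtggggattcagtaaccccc
A global alignment paired 238 positions of these stretches, and 205 of them (86.1%) were identical. The only TGACG in the Ins1 stretch began 185 bases before the start of the gene. The 21 bases around it, which began 193 bases before the start, are shown beside the bases of Ins2 that aligned with them, which began 181 bases before the start and held no TGACG.
Ins1: agagttgtTGACGtccaatga
Ins2: agaggtgttgttgtccaatga
The E-box GCCATCTG occurred at 238 and 112 bases before the start of Ins1 and at 100 bases before the start of Ins2. It was present on either strand in 0.998% of all 33469 promoters of the table, and TGACG was present in 18.2%. The full CRE, TGACGTCA, which contains TGACG, was present in 1.59% of all promoters and in none of the members matched. Promoters of Ins1, Ins2, Iapp, Pcsk2, Cpe and Pcsk1n were matched, and those of Pcsk1 and Slc30a8 were not. Pcsk2 and Cpe each held 1 TGACG, at 57 bases (minus strand) and 173 bases (plus strand) before the start. The homeodomain core TAAT, present in 57.0% of all promoters, occurred 6 times in Ins1, 4 times each in Ins2 and Iapp, 2 times in Pcsk1n and not in Pcsk2 or Cpe. The general E-box CANNTG, which the insulin E-box contains, was present in 65.5% of all promoters and occurred 3 times each in Ins1 and Iapp, 2 times each in Ins2, Cpe and Pcsk1n, and not in Pcsk2. A match of letters is a description of the window and does not show a bound site.

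The libraries held 42551133 to 92635979 fragments, and the members together took 4.81 to 8.80% of all rat TPM. Of 13 listed beta-cell markers 11 were in the table, and 10 of them, all but Ucn3, were at 1 TPM or more in every library. Among them the glucose transporter gene Slc2a2 was at a CON mean of 517 TPM in WT and 62.6 TPM in the mutant. The summed alpha-cell markers ran from 1297 to 2093 TPM in WT and from 589 to 1676 TPM in Med14 S983A, carried mostly by Gc and Gcg out of 7 genes listed, while Irx1 stayed under 0.1 TPM and Irx2 was at 0 in every library. Gcg, which encodes proglucagon, another substrate of the convertases, lay between 165 and 1345 TPM in WT and between 6.09 and 113 TPM in the mutant. The summed markers of delta, PP and epsilon cells stayed under 0.5 TPM, those of fibroblasts and endothelium under 5 TPM and those of immune cells under 2 TPM. Acinar markers summed to 13.1 to 65.4 TPM in WT and to 16.2 to 123 TPM in the mutant, and 5 of the 10 listed genes, Prss1 and Cpb1 among them, were at 0 in every library. The part of these genes in the results that follow was not tested.

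Levels are in TPM, which is per transcript length, so members can be compared with each other. Differences are log2 changes of TPM + 1 with the standard error (SE) from a limma fit over all 28 libraries. A gene was called where its Benjamini-Hochberg adjusted p was under 0.05 and its fold over 1.5, and a verb such as rose or fell is used only for called changes. All treated groups of a genotype were set against the same pair of CON libraries, so their changes are not independent of each other. The CON libraries carry no time label. In a change from CON, or between 8 and 16 h, the agent and the hours of culture therefore cannot be told apart. The median change of all tested genes on the TPM scale was -0.34 in WT and -0.28 in the mutant at 8 h of FSK, and -0.16 and -0.20 in WT at 16 h of Ex-4 and FSK. Centring each library on its median gene brought these medians to between 0.03 and 0.06, whereas with ERCC scaling they were -0.32 in WT and -0.36 in the mutant at 8 h of FSK, and 0.15 and 0.16 in WT at 16 h of Ex-4 and FSK. In bulk RNA, fewer cells of a kind and less RNA per cell cannot be told apart.

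Ins2 was the member that differed most between the genotypes before any treatment. Ins2 (NM_019130, minus strand, build rn6, chr1:215856967-215858034) was at 2885 and 2991 TPM in the WT CON libraries. In the Med14 S983A CON libraries it was at 32620 and 37516 TPM. Both mutant libraries stood far above both WT libraries, and the gap held in all 7 conditions: the lowest of the mutant libraries, after 16 h of FSK, was above the highest WT library. The difference at CON was 3.57 ± 0.057 (SE, adjusted p = 2.25e-25), a fold of 11.9. Ins2 ranked 10th of the 17455 symbols by TPM in WT CON cells and 2nd in mutant CON cells.

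Ins1 (NM_019129, plus strand, build rn6, chr1:272799784-272800349) was the most abundant symbol in both genotypes at CON and after 16 h of FSK. It was at 34501 and 33716 TPM in WT CON cells and at 38834 and 42395 TPM in mutant CON cells. The mutant libraries were the higher, without overlap, but the difference of 0.25 ± 0.055 (SE, adjusted p = 0.000289) was under the fold minimum. Ins1 therefore exceeded Ins2 by ratios of 12 and 11.3 in the WT CON libraries and of 1.19 and 1.13 in the mutant CON libraries. The coding sequences of both genes are closely related, and how a read that fits both was assigned is not given in the sources used here, so part of each value may belong to the other gene.

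Under Ex-4 in WT, Ins1 was at 36571 and 34917 TPM after 1 h, at 47434 and 45098 TPM after 8 h and at 58758 and 57777 TPM after 16 h. With FSK the WT libraries were at 35900 and 37026 TPM after 1 h, at 65627 and 67834 TPM after 8 h and at 59777 and 56967 TPM after 16 h. All 8 WT libraries of 8 and 16 h lay above both CON libraries, and the highest values were those of 8 h of FSK. Ins1 rose in WT by 0.77 ± 0.055 (SE, adjusted p = 9.7e-12) after 16 h of Ex-4. It rose by 0.97 ± 0.055 (SE, adjusted p = 1.57e-14) after 8 h and by 0.77 ± 0.055 (SE, adjusted p = 1.96e-12) after 16 h of FSK. After 8 h of Ex-4 the change of 0.44 ± 0.055 (SE, adjusted p = 2.46e-07) was under the fold minimum, and scaling on the spiked-in ERCC RNAs, which gave 0.59, took it over.

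In Med14 S983A cells under Ex-4, Ins1 was at 40002 and 38814 TPM after 1 h, at 47594 and 48326 TPM after 8 h and at 45426 and 44612 TPM after 16 h. With FSK the mutant libraries were at 43415 and 39501 TPM after 1 h, at 61034 and 59014 TPM after 8 h and at 41155 and 41811 TPM after 16 h. The libraries of 8 h of FSK stood above all others of this genotype, and those of 16 h of FSK overlapped the CON range. No Ins1 change was called in the mutant. The largest, after 8 h of FSK, was 0.56 ± 0.055 (SE, adjusted p = 6.29e-10), and it was called once each library was centred on its median gene (0.90) or tested with edgeR (0.83). After 16 h the mutant changes were 0.15 ± 0.055 (SE, adjusted p = 0.0206) with Ex-4 and 0.03 ± 0.055 (SE, adjusted p = 0.604) with FSK.

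The difference between the genotypes in the Ins1 response was tested directly, as the change in the mutant minus the change in WT. It was -0.62 ± 0.077 (SE, adjusted p = 6.48e-07) at 16 h of Ex-4 and -0.74 ± 0.077 (SE, adjusted p = 1.36e-08) at 16 h of FSK, both called. At 8 h it was -0.20 ± 0.077 (SE, adjusted p = 0.0752) with Ex-4 and -0.40 ± 0.077 (SE, adjusted p = 0.000115) with FSK, neither of them called. Without the second mutant CON library the 16 h Ex-4 value was -0.56, under the fold minimum. The mutant thus entered treatment with the higher Ins1 level and ended 16 h of either agent with the lower one, at differences of -0.37 ± 0.055 (SE, adjusted p = 1.56e-06) and -0.49 ± 0.055 (SE, adjusted p = 1.46e-08), which were under the fold minimum.

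**Figure D1:**
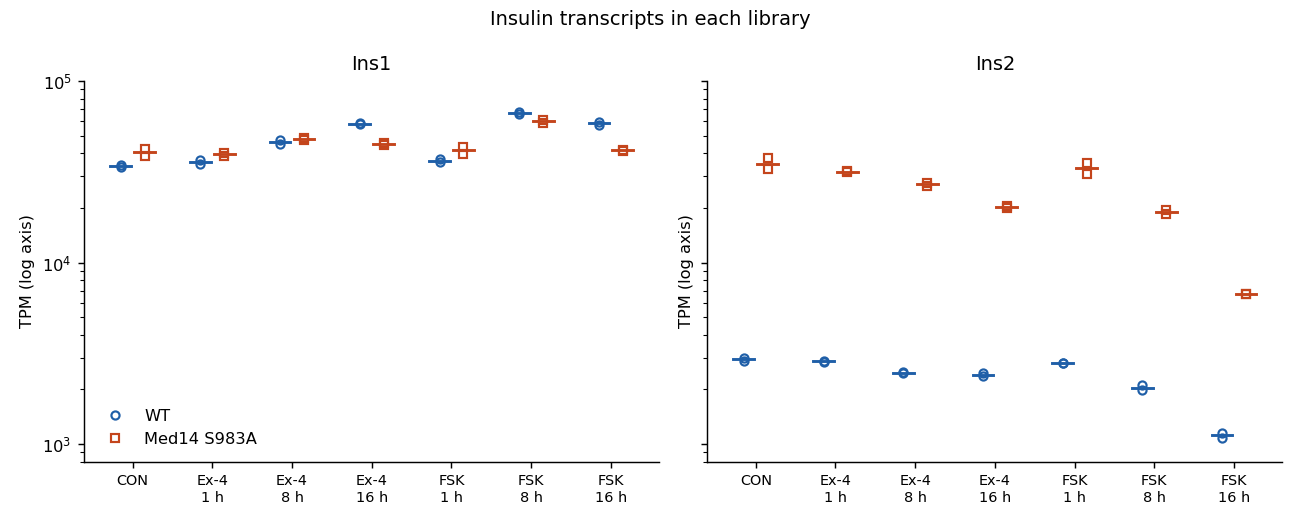
TPM of Ins1 and Ins2 (vertical log axis) in each library of the 14 groups (horizontal axis), with WT as blue circles, Med14 S983A as orange squares and the mean of the 2 libraries of a group as a bar. Ins1 stays between 33716 and 67834 TPM in every library, whereas Ins2 in WT lies between 1080 and 2991 TPM and in the mutant between 6719 and 37516 TPM.

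Ins2 fell under FSK in both genotypes. In WT it was at 2792 and 2794 TPM after 1 h of FSK, at 1980 and 2112 TPM after 8 h and at 1154 and 1080 TPM after 16 h. In the mutant it was at 35168 and 30934 TPM, 19393 and 18482 TPM and 6719 and 6724 TPM at the same times. Libraries of 8 and 16 h lay below the CON libraries in both genotypes, with 16 h the lowest. Ins2 fell in WT after 16 h of FSK, with a change of -1.39 ± 0.057 (SE, adjusted p = 2.66e-17), while the 8 h change of -0.52 ± 0.057 (SE, adjusted p = 5.45e-09) was under the fold minimum. It fell in the mutant at both times, with -0.89 ± 0.057 (SE, adjusted p = 1.76e-13) at 8 h and -2.38 ± 0.057 (SE, adjusted p = 5.42e-22) at 16 h. The 8 h call in the mutant was lost with median centring (-0.55). DESeq2 without ERCC size factors called 2 members lower at that point, against 3 by limma.

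Ex-4 was followed by lower Ins2 values as well. The WT libraries were at 2860 and 2846 TPM after 1 h, 2489 and 2453 TPM after 8 h and 2463 and 2359 TPM after 16 h. The mutant libraries were at 31531 and 31818 TPM, 27475 and 26489 TPM and 20103 and 20500 TPM. After 8 and 16 h each was below its CON pair, by more than the spread of the pairs. The 16 h change was -0.29 ± 0.057 (SE, adjusted p = 0.000109) in WT, under the fold minimum, and Ins2 fell in the mutant with -0.79 ± 0.057 (SE, adjusted p = 1.25e-11). The test of the difference between the genotypes gave -0.98 ± 0.08 (SE, adjusted p = 1.93e-10) at 16 h of FSK, which was called, and -0.50 ± 0.08 (SE, adjusted p = 2.29e-05) at 16 h of Ex-4, which was not. The latter was called under median centring (-0.63), ERCC scaling (-0.94), edgeR (-0.61) and DESeq2 (-0.62). 

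Ratios within a library do not depend on how the libraries are scaled, and they carry no test here. The Ins1 to Ins2 ratio of WT went from a mean of 11.6 ± 0.486 (SD, n = 2) at CON to 24.2 ± 0.453 after 16 h of Ex-4 and 52.3 ± 0.655 after 16 h of FSK. In the mutant it went from 1.16 ± 0.0427 to 2.22 ± 0.0591 and 6.17 ± 0.0657. In both genotypes the ratio was higher with FSK than with Ex-4 at 8 and at 16 h, without overlap, and at every condition both WT libraries were above both mutant libraries. The sum of Ins1 and Ins2 was 37046 ± 480 TPM in WT CON and 75683 ± 5980 TPM in mutant CON libraries. After 16 h of FSK the order of the sums was the opposite, with 59489 ± 2039 TPM in WT and 48204 ± 468 TPM in the mutant.

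**Figure D2:**
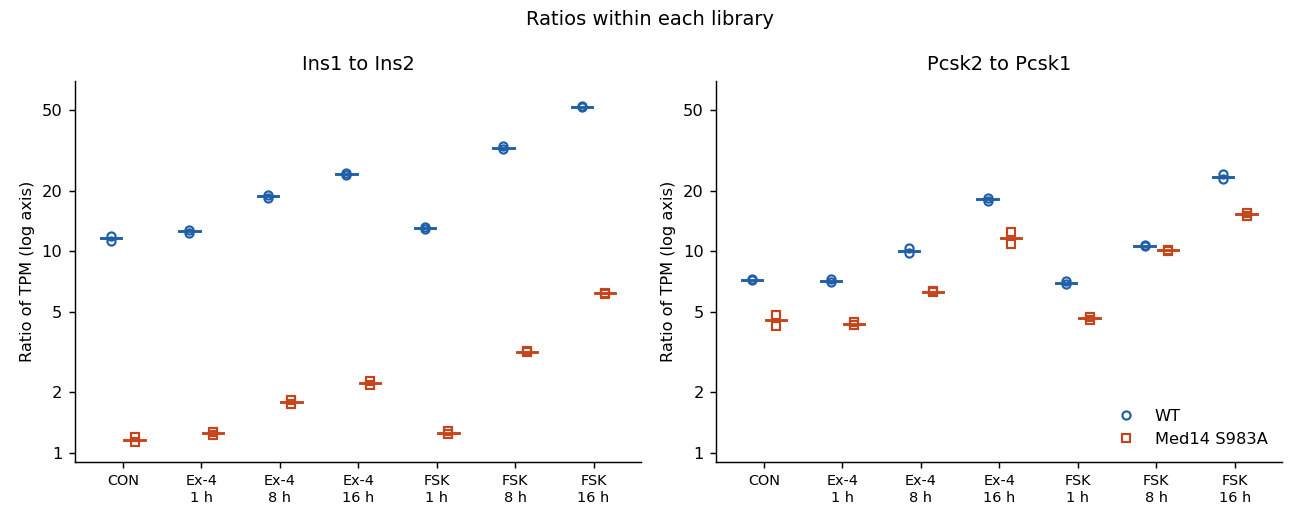
Ratio of the TPM of Ins1 to Ins2 (left) and of Pcsk2 to Pcsk1 (right) on a log axis in each library of the 14 groups, with WT as blue circles, Med14 S983A as orange squares and group means as bars. The Ins1 to Ins2 ratio is higher after 8 and 16 h of either agent than at CON in both genotypes, and the WT libraries lie above the mutant libraries in every condition.

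Iapp (NM_012586, plus strand, rn6, chr4:176511020-176515935), the amylin gene, was the member with the clearest difference between the genotypes in the opposite direction to Ins2. It was at 7007 and 6973 TPM in WT CON and at 3213 and 3328 TPM in mutant CON libraries, a difference of -1.10 ± 0.045 (SE, adjusted p = 6.41e-17). Every one of the 14 mutant libraries, from 2729 to 3762 TPM, was below every WT library, from 6973 to 14797 TPM. Iapp was the second most abundant symbol in WT CON cells.

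Iapp rose in WT cells, and no change of Iapp from CON was called in the mutant. Ex-4 gave 7548 and 7736 TPM after 1 h, 7186 and 7881 TPM after 8 h and 11417 and 11171 TPM after 16 h in WT. FSK gave 7980 and 8003 TPM, 10941 and 11256 TPM and 14797 and 14762 TPM. The libraries of 16 h of Ex-4 and of 8 and 16 h of FSK stood clear of the rest. Iapp rose by 0.69 ± 0.045 (SE, adjusted p = 1.97e-12) at 16 h of Ex-4, by 0.67 ± 0.045 (SE, adjusted p = 5.62e-13) at 8 h of FSK and by 1.08 ± 0.045 (SE, adjusted p = 4.18e-17) at 16 h of FSK.

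The mutant values of Iapp were 3762 and 3433 TPM after 16 h of Ex-4, 2729 and 2764 TPM after 8 h of FSK and 3048 and 3184 TPM after 16 h of FSK. Those of 16 h of Ex-4 lay above both CON libraries, and those of FSK below both. The corresponding changes were 0.14 ± 0.045 (SE, adjusted p = 0.0109), -0.25 ± 0.045 (SE, adjusted p = 1.43e-05) and -0.07 ± 0.045 (SE, adjusted p = 0.156). The difference between the genotypes in the response was called at 8 h of FSK, with -0.92 ± 0.063 (SE, adjusted p = 1.51e-11), and at 16 h of FSK, with -1.15 ± 0.063 (SE, adjusted p = 1.59e-13). With 16 h of Ex-4 it was -0.56 ± 0.063 (SE, adjusted p = 1.8e-07), just under the fold minimum, and was called under median centring (-0.69) and TPM recomputed without the members (-0.63).

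Pcsk1 and Pcsk2 encode the convertases that cut proinsulin. In WT at 16 h of FSK Pcsk2 rose and Pcsk1 fell, whereas both fell in the mutant. Pcsk2 (NM_012746, plus strand, rn6, chr3:137618891-137923385) was the more abundant, at 748 and 693 TPM in WT CON and 739 and 737 TPM in mutant CON libraries. Pcsk1 (NM_017091, minus strand, rn6, chr2:91450164-91497091) was at 103 and 96.8 TPM in WT CON and at 173 and 152 TPM in mutant CON libraries. The Pcsk2 ranges of the genotypes overlapped, and those of Pcsk1 did not. Pcsk1 was higher in the mutant at CON by 0.70 ± 0.06 (SE, adjusted p = 1.57e-10), a fold of 1.62, while the Pcsk2 difference was 0.03 ± 0.035 (SE, adjusted p = 0.385) with a 95% interval of -0.04 to 0.11.

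Pcsk2 rose in WT under both agents. It was at 752 and 742 TPM after 1 h, 883 and 875 TPM after 8 h and 1318 and 1357 TPM after 16 h of Ex-4. With FSK it was at 749 and 745 TPM, 944 and 1000 TPM and 1221 and 1224 TPM. Every library of 8 or 16 h lay above the CON pair, and 16 h above 8 h. The change was 0.89 ± 0.035 (SE, adjusted p = 1.18e-16) at 16 h of Ex-4 and 0.76 ± 0.035 (SE, adjusted p = 2.87e-16) at 16 h of FSK. At 8 h of FSK the value of 0.43 ± 0.035 (SE, adjusted p = 2.05e-11) was under the fold minimum, but it was called under median centring (0.82) and edgeR (0.76).

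In Med14 S983A cells Pcsk2 was at 796 and 778 TPM after 1 h, 741 and 727 TPM after 8 h and 847 and 835 TPM after 16 h of Ex-4. Under FSK it was at 795 and 810 TPM, 604 and 585 TPM and 417 and 417 TPM. The FSK libraries of 16 h were the lowest of all 28. Pcsk2 fell in the mutant after 16 h of FSK, with -0.82 ± 0.035 (SE, adjusted p = 6.45e-17), a call that ERCC scaling brought under the fold minimum (-0.58). The 16 h Ex-4 change of 0.19 ± 0.035 (SE, adjusted p = 4.94e-05) was under the fold minimum.

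The genotypes differed in the Pcsk2 response at 16 h of Ex-4 by -0.70 ± 0.049 (SE, adjusted p = 4.22e-11). They differed by -0.74 ± 0.049 (SE, adjusted p = 7.11e-12) at 8 h and by -1.59 ± 0.049 (SE, adjusted p = 4.05e-18) at 16 h of FSK. All 3 values were called, and at 16 h of FSK WT and mutant moved in opposite directions. At that time the mutant was lower than WT, with a log2 difference of -1.55 ± 0.035 (SE, adjusted p = 2.5e-22).

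Pcsk1 had the steepest fall of all members in the mutant. Mutant libraries were at 185 and 175 TPM after 1 h, 118 and 115 TPM after 8 h and 77.8 and 66.9 TPM after 16 h of Ex-4. With FSK they were at 168 and 178 TPM, 59.4 and 58.4 TPM and 27.7 and 26.9 TPM. Values of 8 and 16 h lay below CON, in that order, and without overlap. Pcsk1 fell at 16 h of Ex-4, with -1.16 ± 0.06 (SE, adjusted p = 1.76e-14). With FSK it fell at 8 h, with -1.45 ± 0.06 (SE, adjusted p = 2.01e-17), and at 16 h, with -2.53 ± 0.06 (SE, adjusted p = 4.59e-22).

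WT values of Pcsk1 were 104 and 106 TPM after 1 h, 85.5 and 89.6 TPM after 8 h and 73.9 and 73.5 TPM after 16 h of Ex-4. With FSK they were 109 and 105 TPM, 87.9 and 94.7 TPM and 50.7 and 53.5 TPM. The 16 h libraries were the lowest with each agent. The only called WT change was at 16 h of FSK, -0.92 ± 0.06 (SE, adjusted p = 3.33e-13), which ERCC scaling moved to -0.53, under the fold minimum. The response of the mutant differed from that of WT by -0.73 ± 0.084 (SE, adjusted p = 2.29e-07) at 16 h of Ex-4, by -1.32 ± 0.084 (SE, adjusted p = 3.48e-12) at 8 h of FSK and by -1.60 ± 0.084 (SE, adjusted p = 6.45e-14) at 16 h of FSK.

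The order of the genotypes in Pcsk1 turned over during treatment. The mutant was higher than WT at CON and was lower at 8 h of FSK, with -0.62 ± 0.06 (SE, adjusted p = 1.14e-09), and at 16 h of FSK, with -0.91 ± 0.06 (SE, adjusted p = 7.78e-13). At 16 h of Ex-4 the difference of -0.03 ± 0.06 (SE, adjusted p = 0.663) was not called, with a 95% interval of -0.15 to 0.09. The 8 h FSK value was under the fold minimum with ERCC scaling (-0.53) and without the second WT library of 8 h of FSK (-0.57). The ratio of Pcsk2 to Pcsk1, which was added after the values were seen, was 7.28 and 7.16 in WT CON and 4.27 and 4.84 in mutant CON libraries. After 16 h of FSK it was 24.1 and 22.9 in WT and 15 and 15.5 in the mutant.

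Pcsk1n, the gene of the Pcsk1 inhibitor proSAAS, was close to the limit of detection. Of its 2 annotated copies on rn6 the one kept (minus strand, chrX:15425076-15428518) ran from 0.173 to 1.22 TPM, or 5 to 34 fragments a library, and the other (chrX:15324263-15327705) had a mean of 0.0806 TPM. The copies are 936 bases long each, and whether fragments that fit both were left out was not tested. The lowest group was mutant cells after 16 h of FSK, at 0.173 and 0.406 TPM, and 12 of the 13 neighbouring pairs of groups in the order of means overlapped. The ratio of Pcsk1 to Pcsk1n lay between 55.0 and 256 over all libraries. When the filter on low values was dropped, Pcsk1n passed the call rule in 2 comparisons, both on these few fragments. One was the difference between the genotypes in the response to 16 h of FSK (-0.59 ± 0.217, adjusted p = 0.0377), and the other the excess of 16 h of Ex-4 over FSK in the mutant (0.62 ± 0.153, adjusted p = 0.00257).

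Cpe (NM_013128, plus strand, rn6, chr16:26906716-27014811), the carboxypeptidase gene, was the steadiest tested member. Its 28 values lay between 1430 and 2235 TPM, and the highest group mean was 1.52 times the lowest. WT CON libraries were at 1929 and 1908 TPM and mutant CON libraries at 1898 and 1740 TPM. The mutant libraries were the lower without overlap, but the difference of -0.08 ± 0.039 (SE, adjusted p = 0.0823) was not called, with a 95% interval of -0.16 to 0.00. No change from CON was called for Cpe in either genotype, and the values ran from -0.32 ± 0.039 (SE) in the mutant at 16 h of FSK to 0.23 ± 0.039 in the mutant at 16 h of Ex-4. With ERCC scaling the WT change at 16 h of FSK, 0.59, was called as well.

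The exception for Cpe was the pair of mutant libraries of 16 h of FSK. These were at 1430 and 1482 TPM, the lowest of all, against 2160 and 2235 TPM in WT. The difference of -0.59 ± 0.039 (SE, adjusted p = 7.77e-13) was called. It was -0.54 with ERCC scaling, -0.57 without the second WT library and -0.57 without the first mutant library, each under the fold minimum.

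Slc30a8 (NM_001130538, plus strand, rn6, chr7:91832988-91865774), the gene of the granule zinc transporter, was at 803 and 750 TPM in WT CON and 817 and 750 TPM in mutant CON libraries. The ranges overlapped, and the difference was 0.01 ± 0.047 (SE, adjusted p = 0.832), with a 95% interval of -0.09 to 0.11. Ex-4 in WT gave 729 and 717 TPM after 1 h, 552 and 549 TPM after 8 h and 708 and 730 TPM after 16 h. FSK in WT gave 737 and 722 TPM, 424 and 435 TPM and 399 and 403 TPM. After Ex-4 the values were lowest at 8 h and at 16 h lay above those of 8 h but below both CON libraries, whereas after FSK they were lowest at 16 h.

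The mutant had lower Slc30a8 values at 16 h with both agents. Ex-4 gave 786 and 756 TPM after 1 h, 562 and 541 TPM after 8 h and 530 and 479 TPM after 16 h. FSK gave 741 and 771 TPM, 313 and 289 TPM and 154 and 158 TPM. Values of 16 h were below those of 8 h, which were below CON. Slc30a8 fell in the mutant at 8 h of FSK, with -1.38 ± 0.047 (SE, adjusted p = 4.5e-19), and at 16 h of FSK, with -2.32 ± 0.047 (SE, adjusted p = 2.63e-23). Under 16 h of Ex-4 it fell with -0.63 ± 0.047 (SE, adjusted p = 2.2e-11). That call was lost with median centring (-0.58), without the first mutant CON library (-0.57) and without the second 16 h Ex-4 library (-0.56). DESeq2 without ERCC size factors called 2 members lower at that point, against 3 by limma.

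In WT Slc30a8 fell under FSK, with -0.85 ± 0.047 (SE, adjusted p = 1.06e-14) at 8 h and -0.95 ± 0.047 (SE, adjusted p = 1.59e-15) at 16 h, and no change was called with Ex-4. The 8 h value was -0.46 under median centring and the 16 h value -0.55 with ERCC scaling, both under the fold minimum. The 8 h fall was also not called by edgeR or by DESeq2 without ERCC size factors. The response of the mutant differed from that of WT at 16 h of FSK by -1.37 ± 0.067 (SE, adjusted p = 1.58e-14). For 16 h of Ex-4 the difference was -0.52 ± 0.067 (SE, adjusted p = 9.54e-07), under the fold minimum, and it was called under median centring (-0.65) and ERCC scaling (-0.97).

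**Figure D3:**
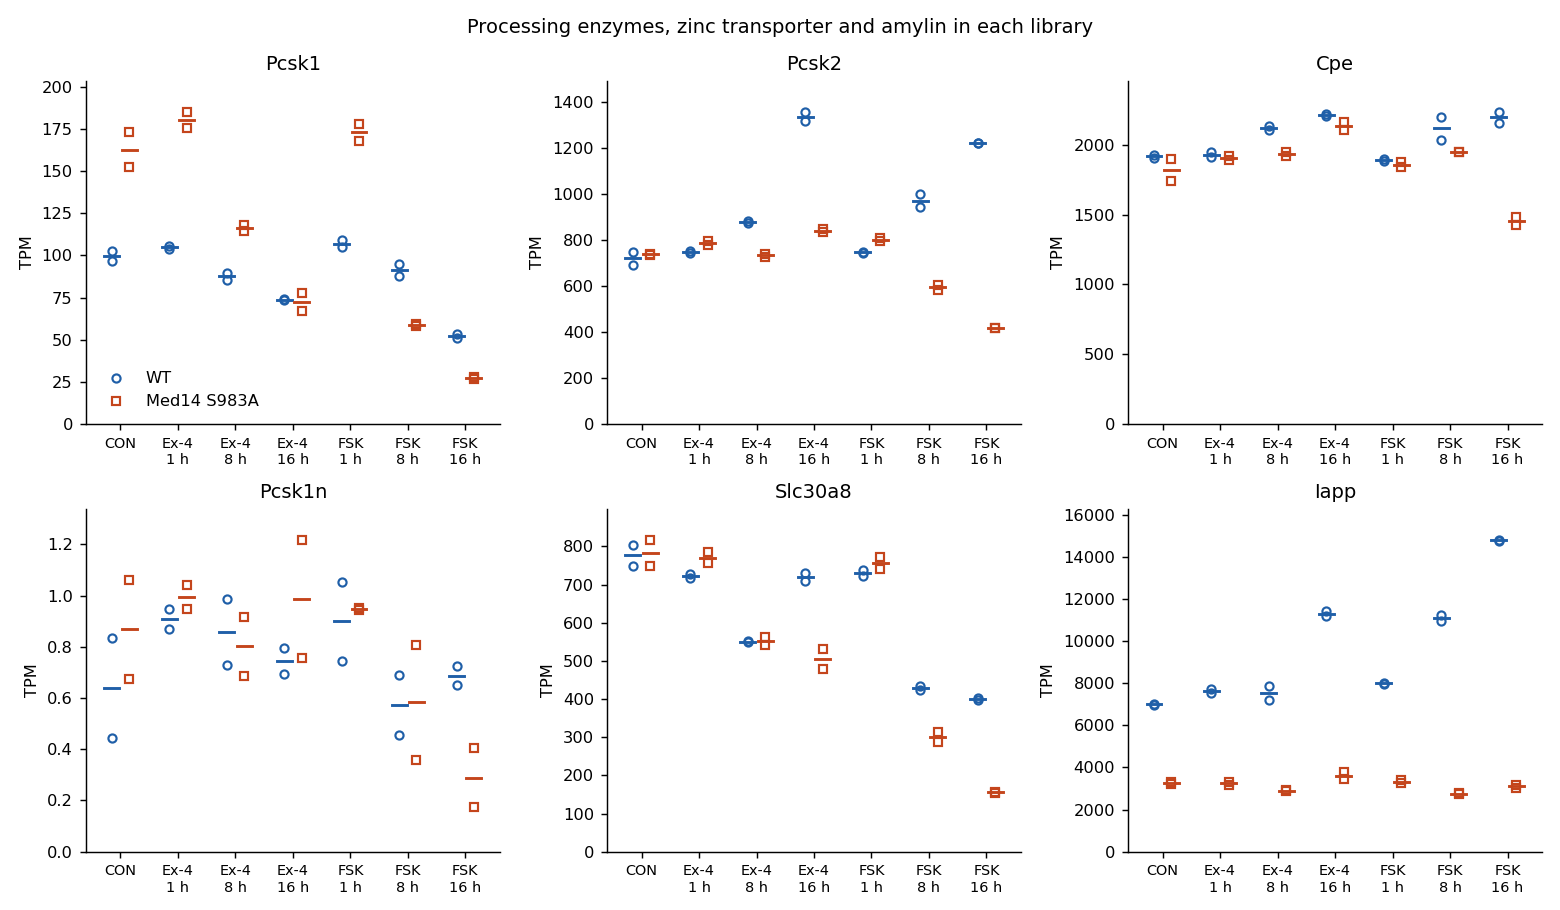
TPM of the other 6 members (vertical linear axes from 0) in each library of the 14 groups, with WT as blue circles, Med14 S983A as orange squares and group means as bars. Iapp is higher in every WT library than in every mutant library, Pcsk2 is highest in WT after 16 h, and Pcsk1 and Slc30a8 are lowest in the mutant after 16 h of FSK.

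Across the 7 tested members the changes gathered at 8 and 16 h. At 1 h no member was called in either genotype, where 2.87% (Ex-4) and 7.47% (FSK) of all tested genes were called in WT and 3.04% and 10.4% in the mutant. By limma, members with an unadjusted p under 0.05 numbered 2 and 1 in WT and 3 and 1 in the mutant at 1 h, and neither edgeR nor DESeq2 called any. At 8 h of Ex-4 no member was called either, against a background of 9.6% in WT and 6.3% in the mutant, although 7 and 6 members had an unadjusted p under 0.05. DESeq2 with ERCC size factors called 1 member, Ins1, at 8 h of Ex-4 in WT.

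After 16 h of Ex-4, 3 members were called in each genotype, with a background of 11.8% in WT and 11.9% in the mutant. In WT the called members were Ins1, Iapp and Pcsk2, all higher. In Med14 S983A they were Ins2, Pcsk1 and Slc30a8, all lower. Median centring and DESeq2 without ERCC size factors each called 2 members lower in the mutant. At 8 h of FSK 3 members were called in each genotype, with a background of 43.6% in WT and 46.1% in the mutant, so the count was no larger a share than that of all genes. In WT these were Ins1 and Iapp, higher, and Slc30a8, lower, and in the mutant Ins2, Pcsk1 and Slc30a8 fell again. Median centring turned the WT split into 3 higher and none lower, with Pcsk2 in place of Slc30a8. It turned the mutant split into 1 higher (Ins1) and 2 lower (Pcsk1 and Slc30a8). In WT edgeR and DESeq2 without ERCC size factors also gave 3 higher and none lower. In the mutant that DESeq2 fit gave 1 higher and 2 lower, and edgeR 1 higher and 3 lower. There were 6 members called in WT at 16 h of FSK (background 34.5%), of which Ins1, Iapp and Pcsk2 rose and Ins2, Pcsk1 and Slc30a8 fell. With ERCC scaling the split was 4 higher, Cpe included, and 1 lower, Ins2. In the mutant 4 were called (background 33.3%), namely Ins2, Pcsk1, Pcsk2 and Slc30a8, all lower.

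**Figure D4:**
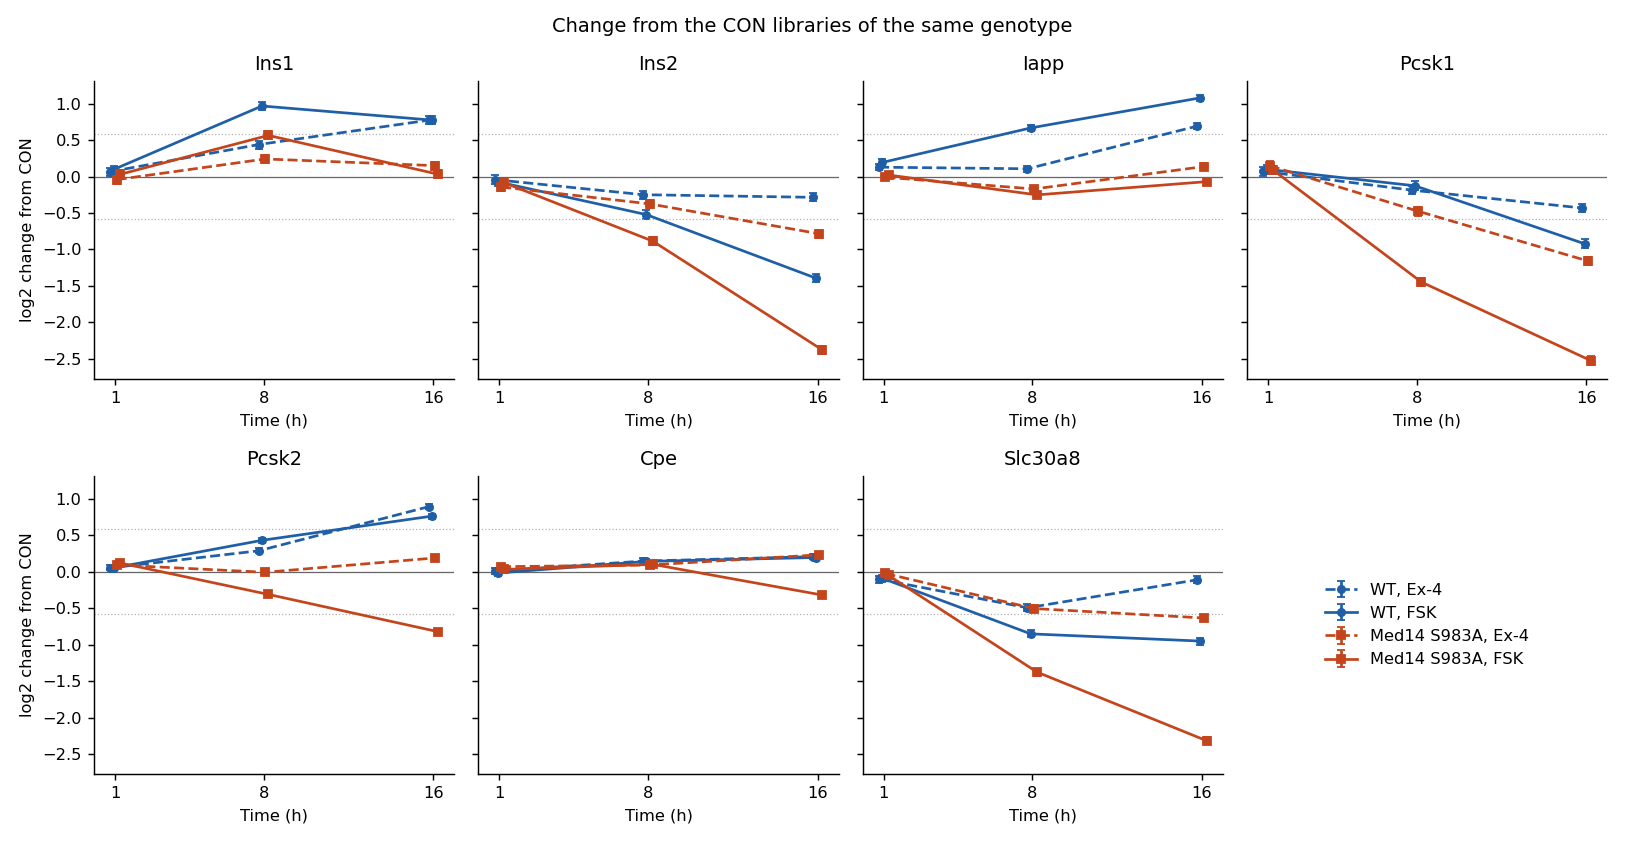
Change from the CON libraries of the same genotype (log2 of TPM + 1, points with SE bars, many of them smaller than the points) against hours of treatment for the 7 tested members, with WT in blue, Med14 S983A in orange, Ex-4 dashed and FSK solid. Dotted lines mark the 1.5-fold minimum. The mutant FSK line is the lowest at 16 h for all 7 members, and the WT lines are the highest for Iapp.

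Differences between the genotypes under treatment followed the levels described above. With Ex-4 the members called were 3 at 1 h (background 19.7%), 2 at 8 h (18.8%) and 3 at 16 h (20.8%), and at CON 3 were called (19.4%). With ERCC scaling the 16 h Ex-4 split of 1 higher and 2 lower became 1 higher and 4 lower. With FSK they were 3 at 1 h (20.1%), 4 at 8 h (21%) and 6 at 16 h (23.3%). Ins2 was higher and Iapp lower in the mutant in all 7 of these comparisons, with log2 differences of 2.59 to 3.57 for Ins2 and of -2.25 to -1.10 for Iapp. In the comparison at 16 h of FSK, Pcsk1, Pcsk2, Cpe and Slc30a8 were lower in the mutant too, and Ins1 was the tested member not called. The Slc30a8 difference then was -1.36 ± 0.047 (SE, adjusted p = 2.17e-18).

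The tests of the difference in response between the genotypes called no member at 1 h (background 0.672% for Ex-4 and 1.64% for FSK) or at 8 h of Ex-4 (2.77%). At these 3 points the members with an unadjusted p under 0.05 numbered 1, 1 and 4 by limma, and edgeR and DESeq2 called none. There were 3 members called at 16 h of Ex-4 (background 7.24%) and 3 at 8 h of FSK (13.9%). At 16 h of FSK 6 were called (17%). Every one of these 12 values was negative, that is, the change in the mutant was the lower. The background shares count calls in either direction, and the share of all genes called lower is not given here. The Ex-4 count was 6 rather than 3 under median centring, ERCC scaling, edgeR and DESeq2, with Iapp, Ins2 and Slc30a8 added, and 5 with TPM recomputed without the members. Cpe was the member not called at 16 h of FSK, at -0.52 ± 0.055 (SE, adjusted p = 2.15e-08), and it was called with edgeR (-0.62). The median of all tested genes for the 16 h Ex-4 difference was 0.09 in TPM, -0.04 once centred on medians and -0.33 on the ERCC scale. For 16 h of FSK these medians were 0.08, -0.01 and -0.06. With ERCC scaling the Ex-4 value of Cpe was -0.42, and the other 6 members all lay lower, between -1.17 for Pcsk1 and -0.94 for Ins2.

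**Figure D5:**
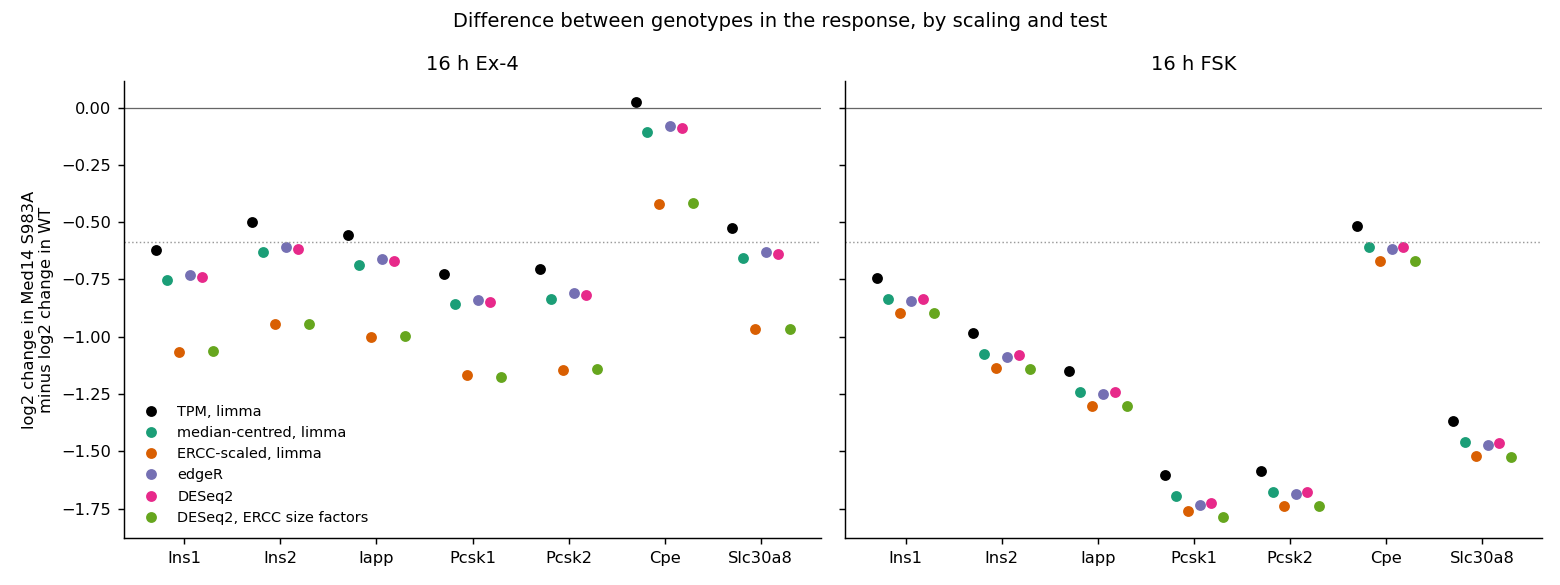
Log2 change in Med14 S983A minus log2 change in WT (vertical axis) for the 7 tested members after 16 h of Ex-4 (left) and 16 h of FSK (right) under 6 combinations of scaling and test, shown as colours, with the 1.5-fold minimum as a dotted line. The values are below 0 for every member under each combination, apart from Cpe on the TPM scale after Ex-4 at 0.03, and ERCC scaling gives the lowest Ex-4 values.

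Ex-4 and FSK were also compared with each other at matched times. At 1 h no member was called in WT (background 1.79%) or in the mutant (3.03%), and none had an unadjusted p under 0.05 by limma or a call by edgeR or DESeq2. At 8 h no member was called in WT (28.1%), where 5 had an unadjusted p under 0.05. The largest of these WT differences, Ex-4 minus FSK, were -0.56 ± 0.045 (SE, adjusted p = 3.25e-11) for Iapp and -0.53 ± 0.055 (SE, adjusted p = 3.69e-09) for Ins1, and both were called by edgeR (-0.80 and -0.77). In the mutant at 8 h, Pcsk1 and Slc30a8 were called (2 of 7, background 36.5%), higher with Ex-4 by 0.97 ± 0.06 (SE, adjusted p = 1.21e-13) and 0.87 ± 0.047 (SE, adjusted p = 9.48e-15). Under median centring the Slc30a8 difference fell under the fold minimum (0.57), and 1 member was higher and 1, Ins1, lower with Ex-4 (-0.63).

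At 16 h the agents differed in WT for Ins2 and Slc30a8 (2 of 7, background 18.7%), which were higher with Ex-4 by 1.11 ± 0.057 (SE, adjusted p = 7.36e-15) and 0.84 ± 0.047 (SE, adjusted p = 4.76e-14). The Ins1 difference was -0.00 ± 0.055 (SE, adjusted p = 0.975), not called, with a 95% interval of -0.12 to 0.11. In the mutant 4 members were called (background 16.3%), all higher with Ex-4. They were Slc30a8 at 1.68 ± 0.047 (SE, adjusted p = 6e-20), Ins2 at 1.59 ± 0.057 (SE, adjusted p = 7.12e-18), Pcsk1 at 1.37 ± 0.06 (SE, adjusted p = 3.66e-16) and Pcsk2 at 1.01 ± 0.035 (SE, adjusted p = 3.8e-18). Only 1 dose of each agent was used, so these values compare 10 nM Ex-4 with 10 µM FSK.

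Between 8 and 16 h of Ex-4 in WT, Iapp and Pcsk2 rose (2 of 7, background 5.58%), by 0.59 ± 0.045 (SE, adjusted p = 9.37e-11) and 0.60 ± 0.035 (SE, adjusted p = 5.55e-13). Both were at the edge of the fold minimum and fell under it when 1 library was left out: Iapp to 0.52 without the first library of 8 h or 0.57 without the first of 16 h, and Pcsk2 to 0.58 without the second of 16 h. With FSK in WT, Ins2 and Pcsk1 fell between these times (2 of 7, background 17.6%), with -0.87 ± 0.057 (SE, adjusted p = 1.27e-12) and -0.80 ± 0.06 (SE, adjusted p = 1.78e-11), values that ERCC scaling took to -0.49 and -0.42, both under the fold minimum. On that scale the called members of this comparison were instead Iapp (0.79) and Pcsk2 (0.71), both higher at 16 h. In the mutant Pcsk1 fell with Ex-4 (1 of 7, background 3.96%), with -0.68 ± 0.06 (SE, adjusted p = 1.4e-09), or -0.58 and under the fold minimum without the second library of 16 h. With FSK in the mutant Ins2, Pcsk1 and Slc30a8 fell (3 of 7, background 27.9%), with -1.49 ± 0.057 (SE, adjusted p = 1.81e-17), -1.08 ± 0.06 (SE, adjusted p = 2.52e-14) and -0.94 ± 0.047 (SE, adjusted p = 3.78e-15). For this comparison 6 members, all but Iapp, were lower at 16 h under median centring, edgeR and DESeq2, and 3 with ERCC scaling. Between 8 and 16 h of FSK Ins1 differed by -0.19 ± 0.055 (SE, adjusted p = 0.00319) in WT and -0.53 ± 0.055 (SE, adjusted p = 3.13e-09) in the mutant, neither called, and the mutant value was called under median centring (-0.72) but not with ERCC scaling (-0.20).

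Over the 14 groups the order of the means separated the members. Ins2 had its 7 lowest groups in WT and its 7 highest in the mutant, from 1117 ± 52.0 TPM (SD, n = 2) in WT after 16 h of FSK to 35068 ± 3462 TPM in mutant CON cells, and 3 of its 13 neighbouring pairs overlapped. For Iapp the mutant held the 7 lowest and WT the 7 highest groups, from 2747 ± 24.9 TPM in the mutant after 8 h of FSK to 14779 ± 24.3 TPM in WT after 16 h of FSK, with 4 overlapping pairs. Mutant cells after 16 h of FSK were the lowest group for Pcsk1, Pcsk2, Cpe, Pcsk1n and Slc30a8. The highest group was mutant cells after 1 h of Ex-4 for Pcsk1, with 180 ± 6.82 TPM, WT cells after 16 h of Ex-4 for Pcsk2, with 1337 ± 27.4 TPM, and mutant CON cells for Slc30a8, with 783 ± 47.5 TPM. Overlapping pairs numbered 5 for Pcsk1, 4 for Pcsk2, 6 for Slc30a8, 7 for Ins1 and 10 for Cpe. The order of such neighbours is not resolved by 2 libraries a group. Overlaps were counted for the members only, so whether any of these counts is unusual among all genes was not tested. For Ins1 the order ran from WT CON cells, at 34108 ± 555 TPM, to WT cells after 8 h of FSK, at 66731 ± 1560 TPM.

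The genes whose pattern over the 14 group means of log2(TPM + 1) was most like that of a member were taken from 7676 others with a mean of at least 10 TPM. For Ins1 they were Hmgcs1 (r = 0.97), an enzyme of cholesterol synthesis, Atp6v0d1 (0.96), a subunit of the vacuolar proton pump, and Cd81 (0.96), a tetraspanin. Ins2 was followed most closely by Padi2 and Cdk5r2 (0.99 and 0.98), and Iapp by Vat1 and Emc10 (0.98 each). Pcsk1 was nearest to S100a1 (0.96) and Zmiz1 (0.95), and Slc30a8 to LOC100910996 (0.99) and Wif1 (0.97). Pcsk2 and Cpe were among each other's nearest genes (0.88). These are descriptions over group means that share libraries and scaling, with no test.

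Other genes of the pathway were counted by list, to be read against the shares of all tested genes called, 11.8% in WT and 11.9% in the mutant at 16 h of Ex-4, 34.5% and 33.3% at 16 h of FSK, and 19.4% between the genotypes at CON. The medians over all genes were -0.16 and -0.06 with Ex-4 and -0.20 and -0.10 with FSK. Of 27 tested genes of proinsulin import and folding in the endoplasmic reticulum, 14 rose and none fell in WT at 16 h of Ex-4 (51.9% called, median log2 change 0.62, against -0.16 over all genes). In the mutant 6 rose and 1 fell (25.9%, median 0.45 against -0.06). After 16 h of FSK 20 rose and 2 fell in WT (81.5%, median 0.90 against -0.20), and 19 rose and 2 fell in the mutant (77.8%, median 0.73 against -0.10). The test of the difference between the genotypes called none of them at 16 h of Ex-4 and 1, Ero1b, at 16 h of FSK. At CON 5 were higher in the mutant and none was lower (18.5%), a share close to the 19.4% of all genes. The largest WT rise with Ex-4 was that of Dnajb9, an endoplasmic reticulum co-chaperone, from 25.2 ± 1.69 to 48.6 ± 2.15 TPM (SD, n = 2; log2 change 0.92 ± 0.079, adjusted p = 2.94e-10). With FSK the largest rise was that of the co-chaperone Dnajc3 (log2 change 1.77 ± 0.063, adjusted p = 1.71e-18) and the largest fall that of Ero1b, a beta-cell oxidase of disulfide formation (log2 change -1.71 ± 0.053, adjusted p = 1.11e-19). Ero1b fell in the mutant with -0.95, a smaller fall by the called difference of 0.76 (adjusted p = 5.47e-09).

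Of 16 other processing enzymes and helpers, 2 rose and 1 fell in WT at 16 h of Ex-4 (18.8%), and 4 rose and 3 fell at 16 h of FSK (43.8%). Pam, the enzyme that amidates the ends of peptides such as amylin, rose from 201 ± 8.45 TPM to 850 ± 35.7 TPM with Ex-4 (log2 change 2.08 ± 0.045, adjusted p = 1.18e-21) and to 1729 ± 27.7 TPM with FSK (log2 change 3.10 ± 0.045, adjusted p = 6.24e-26). It rose in the mutant too, by 1.37 and 2.15, and the genotypes differed by the called values of -0.71 and -0.95. Pcsk6, another proprotein convertase, fell in WT with both agents (log2 change -0.79 ± 0.066, adjusted p = 1.78e-10 and log2 change -1.43 ± 0.066, adjusted p = 3.35e-16). In the mutant its changes were 0.18 and 0.30, not called. The mutant calls of this list were 2 higher and none lower at 16 h of Ex-4, and 5 higher and 3 lower at 16 h of FSK (50%). The list medians in WT were 0.11 with Ex-4 and 0.06 with FSK, and in the mutant 0.13 and 0.23. At CON 2 were higher and 4 lower in the mutant (37.5%).

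Of 19 tested genes of granule cargo and biogenesis, 6 rose and none fell in WT at 16 h of Ex-4 (31.6%), and 7 rose and 5 fell at 16 h of FSK (63.2%). In the mutant the counts were 5 and none with Ex-4 (26.3%), and 4 and 7 with FSK (57.9%). Ptprn, a membrane protein of dense-core granules, had the largest rise with Ex-4 (log2 change 1.31 ± 0.043, adjusted p = 5e-18). Vgf, a granin-like precursor, had the largest with FSK, from 363 ± 5.26 TPM to 2262 ± 28.6 TPM (log2 change 2.63 ± 0.067, adjusted p = 2.35e-21), and its rise in the mutant was larger by 1.81 (adjusted p = 6.34e-14). Scg2, secretogranin II, had the largest fall with FSK, from 578 ± 4.24 TPM to 96.1 ± 0.820 TPM (log2 change -2.58 ± 0.037, adjusted p = 4.51e-26). Medians of this list in WT were 0.33 with Ex-4 and 0.35 with FSK, and in the mutant 0.23 and 0.11. At CON 2 genes of this list were higher and 4 lower in the mutant (31.6%).

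Of 18 tested genes of zinc transport and metallothioneins, only Mt1 was called in WT at 16 h of Ex-4 (5.56%), a metallothionein that fell from 163 ± 1.18 TPM to 58.0 ± 4.87 TPM (log2 change -1.48 ± 0.11, adjusted p = 2.15e-11). With 16 h of FSK 5 rose and 1 fell in WT (33.3%), with the largest rise in Slc30a7, which loads zinc into the early secretory pathway (log2 change 1.24 ± 0.055, adjusted p = 1.56e-16), and the fall in Slc39a14, a zinc importer (log2 change -0.65 ± 0.056, adjusted p = 9.31e-11). In the mutant 3 rose and 2 fell with Ex-4 (27.8%), and 4 rose and 1 fell with FSK (27.8%). In WT the medians were -0.02 with Ex-4 and 0.11 with FSK, and in the mutant 0.11 and 0.26. At CON 1 was higher and 2 were lower in the mutant (16.7%).

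Of 21 tested regulators of the insulin genes, 1 rose and 3 fell in WT at 16 h of Ex-4, and 1 rose and 5 fell in the mutant (28.6%). With 16 h of FSK 2 rose and 12 fell in WT (66.7%, median -0.68 against -0.20 over all genes), and 2 rose and 13 fell in the mutant (71.4%, median -1.01 against -0.10). Crem, which encodes cAMP-responsive activators and repressors, had the largest rise with both agents in WT (log2 change 0.77 ± 0.081, adjusted p = 1.14e-08 and log2 change 2.80 ± 0.081, adjusted p = 3.27e-20). Its rises in the mutant were larger, with called differences of 1.98 and 1.31. With 16 h of Ex-4 the medians were -0.24 in WT and -0.18 in the mutant. At CON 1 regulator was higher and 2 were lower in the mutant (14.3%). The 5 lists were described by counts and medians alone, and nothing is read from them about control of the members.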

How the data were processed

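RNA-seq was made from 28 INS-1 libraries, 2 in each of 14 groups taken from the sample titles. Per the file headers and the submitters' processing notes, the authors aligned reads to rn6 plus 92 ERCC spike-in sequences with STAR 2.5.3a. The deposited TPM values were computed by the authors with HOMER 4.11.1 over exons of RefSeq transcripts, so a spike-in or a very abundant gene lowers the TPM of all others. The deposited raw count table of the authors held the ERCC sequences, was not normalized and was used here for ERCC scaling. DESeq2 1.24.0 was also named in the notes. The study took its DESeq2 size factors from the ERCC spike-ins, whereas the limma fit used here was on the TPM scale.

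The table's 19223 lines gave 17455 symbols after 1676 further transcripts of a symbol were dropped. Genes averaging under 1 TPM were left out. limma 3.58.1 (R 4.3.3, moderated with a trend) was fitted to log2(TPM + 1) over the 14 group means with 14 residual degrees of freedom. A fold change on this scale understates the change of low genes. P-values were adjusted by the Benjamini-Hochberg method over 10275 genes, tests were 2-sided, and a call needed an adjusted p under 0.05 and a fold over 1.5. All 35 comparisons used this fit. A test on simulated data covered WT at 16 h of Ex-4 with planted changes and WT at 16 h of FSK without them. The other comparisons, differences in response among them, were not simulated.

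Low TPM values were whole multiples of the worth of 1 read in 100% of 135800 values (tolerance 0.05 reads, against 22.7% by chance), so fragments were recovered and tested with edgeR 4.0.16 and DESeq2 1.42.0 as alternatives. At 16 h of FSK in WT limma called 3540 genes, edgeR 3582 and DESeq2 3568. At 16 h of Ex-4 in WT these were 1214, 1301 and 1309. Intervals and p-values cover the spread between libraries, and fragments carry no molecular identifiers. Other alternatives were a pseudocount of 0.1 TPM, no filter, a mean of at least 5 TPM, median centring, ERCC scaling, TPM without the members, the libraries of a contrast alone, no fold minimum, a replicate block, and leaving out each library. Replicate numbers were not labelled as batches, and differences between replicates correlated between groups at r of -0.28 to 0.28 over 91 pairs of groups, so numbers were not taken as pairs. No 2 replicates agreed within sampling noise (chi-square per degree of freedom 2.47 to 9.83).

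The named genes were the members, the largest called rise and fall of each pathway list in WT at 16 h of each agent, and the genes most like a member by Pearson's r over group means. Some genes that this rule names are not reported here. The members and lists were chosen with earlier results of these data known. Promoter sequences and motif shares came from the RefSeq promoter table of GRCr8, read with Biopython 1.88, and no rn6 coordinate was converted.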

Additional observations from a re-analysis of the deposited data

Results flagged for a closer look

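The change from CON in Med14 S983A cells differed from the change in WT cells, by limma's test of the difference itself, in 12 cases among the 7 tested members, and the mutant change was the lower in each. After 16 h of Ex-4 the difference in log2 change was -0.62 for Ins1, -0.73 for Pcsk1 and -0.70 for Pcsk2. Under 8 h of FSK it was -0.92 for Iapp, -1.32 for Pcsk1 and -0.74 for Pcsk2. Under 16 h of FSK it was -1.15 for Iapp, -0.74 for Ins1, -0.98 for Ins2, -1.60 for Pcsk1, -1.59 for Pcsk2 and -1.37 for Slc30a8. Of all tested genes, 7.24% were called at 16 h of Ex-4, 13.9% at 8 h of FSK and 17% at 16 h of FSK. These shares count calls in either direction. The medians of all tested genes were 0.09, 0.04 and 0.08 in that order in TPM. On the ERCC scale they were -0.33, -0.06 and -0.06. Each of these comparisons shares its CON libraries with the others of its genotype. An effect of the mutation and a property of the sequenced line or lines cannot be told apart.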

How the results depend on the processing

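Of 245 combinations of a tested member and a comparison, 74 were called, and 59 of these calls held under every alternative run. Leaving out 1 library at a time kept 67 of the 74 calls, and the other alternatives kept 63. A further 21 were called under an alternative only, and no called value changed sign. Dropping the fold minimum raised the calls from 12 to 29 over the 6 WT treatment comparisons, from 10 to 26 over the 6 in Med14 S983A, from 12 to 22 over the 6 tests of a difference in response, from 8 to 21 for Ex-4 against FSK, from 21 to 33 between the genotypes under treatment and from 8 to 23 for 16 h against 8 h. When each library was left out in turn these counts stayed between 12 and 12, 9 and 11, 12 and 14, 8 and 9, 20 and 22, and 7 and 8 in the same order, and at 3 for the genotypes at CON.

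With the replicate block, the counts of member calls were 12, 10, 12, 8, 21 and 8, as without it, and no call changed. The count for differences in response (12) was 16 under median centring, edgeR and DESeq2 and 17 with ERCC scaling. For 16 h against 8 h of FSK in the mutant, 3 members were called, and 6 under median centring, edgeR and DESeq2. For the genotypes at 16 h of Ex-4, 3 were called, and 5 with ERCC scaling. A single pair of libraries stood behind each group, Pcsk1n was limited by its 5 to 34 fragments per library, and reads of Ins1 and Ins2 may be shared.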
